A study of Mus musculus with 4 samples.

Results

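The 37 lysosomal genes examined here encode acid hydrolases, membrane proteins, proton pump subunits and regulators of the lysosome, and their rows were found by gene name from a list written with earlier results of these data known. All 37 were among the 39186 genes of the deposited table. They lie on 15 chromosomes. LSK cells are the Lin-Sca-1+c-Kit+ fraction of the fetal liver, in which blood stem and progenitor cells are enriched, and their RNA was sequenced in 4 samples of C57BL/6 mice, 2 *Pich*-KO and 2 *Pich*-WT. The *Pich*-KO allele is a short germline deletion near the start of the X-linked gene *Ercc6l*, which encodes the helicase PICH, so every cell of the embryo carries it. The *Pich*-WT samples had the intact gene, and the labels name no treatment. The labels do not say whether the samples of a group came from separate embryos, so p-values measure only the spread between these samples. In *Pich*-KO that spread may be technical. The *Pich*-WT samples differed in reads on Y-linked genes, given below, and so were not repeats of the same RNA.

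The lysosome is the acidic compartment in which cells break down proteins, sugars and lipids. Its hydrolases are made in the endoplasmic reticulum, mostly tagged with mannose 6-phosphate in the Golgi and delivered in vesicles, while a V-type ATPase pumps protons into the lumen and heavily glycosylated proteins such as LAMP1 line the membrane. Macrophages carry large amounts of many of these enzymes, and the transcription factor TFEB raises many lysosomal genes by binding an E-box with the core CACGTG in their promoters.

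Promoter sequences are shown for the E-box core CACGTG, and its part in the values of these genes was not tested. A promoter window, the 250 bases before a gene's start in RefSeq on GRCm38.p6, was found for 33 of the 37 genes. *Ctsb*, *Ctsh*, *Asah1* and *Atp6v0d2* had none in the table used. The core CACGTG, a palindrome that reads the same on both strands, stood in a window of 11 of the 33 genes, or 33.3%, and of 6.86% of 27025 genes. The longer palindrome TCACGTGA, which contains the core, stood in a window of 4 genes (12.1%), against 0.907% of all genes. The still longer palindrome made of GT, the core and AC was found for 0 of the 33 genes and for 0.270% of all genes. The stretches around the cores of these 4 genes are printed 5′ to 3′ on the strand of the gene, with CACGTG, or TCACGTGA where it is present, in capitals. A stretch from *Grn* is added as the gene with the largest called change among those with a window and no core.
Ctsd, chr7:142388055-142388077, minus strand: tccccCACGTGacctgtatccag
Ctsd, chr7:142387908-142387937, minus strand: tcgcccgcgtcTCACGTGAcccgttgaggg
Ctsa, chr2:164833749-164833778, plus strand: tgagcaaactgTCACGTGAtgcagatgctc
Mcoln1, chr8:3500436-3500465, plus strand: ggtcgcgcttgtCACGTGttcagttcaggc
Mcoln1, chr8:3500462-3500491, plus strand: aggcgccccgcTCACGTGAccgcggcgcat
Gla, chrX:134601215-134601244, minus strand: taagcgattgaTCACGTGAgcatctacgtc
Gla, chrX:134601182-134601211, minus strand: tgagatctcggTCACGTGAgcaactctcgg
Grn, chr11:102430257-102430314, plus strand: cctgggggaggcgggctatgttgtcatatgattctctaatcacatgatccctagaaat

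The cores began 245 and 98 bases before the RefSeq start of *Ctsd*, 71 and 45 bases before that of *Mcoln1*, and 227 and 194 bases before that of *Gla*. *Ctsa* has 2 windows in RefSeq, and its core began 12 bases before the start further inside the gene. In the GENCODE M21 annotation both *Gla* stretches and the first *Ctsd* stretch lay upstream of the gene. The other stretches with a core overlapped the 5′ untranslated part of 1 or more annotated transcripts, and none overlapped coding sequence. The core was found in 8 of the 22 genes with a window that were lower in *Pich*-KO, in 1 of the 2 that were higher and in 2 of the 9 that did not pass the test, by the test given next. A match describes these letters and is not evidence of binding.

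Between 14703215 and 20933919 reads fell on genes in each sample. *Ercc6l* itself had 1142 and 1232 normalized counts in *Pich*-KO, against 772 and 661 in *Pich*-WT, which does not check the labels, since a short deletion can leave the transcript. *Pich*-WT sample 2 stood apart in having 0 reads on the Y-linked genes *Uty*, *Kdm5d*, *Ddx3y* and *Eif2s3y* and 699 on *Xist*, against 4 to 13 *Xist* reads in the others, so results are also given without it. The libraries also differed in markers of other cell types. Of 20 macrophage markers 19 were lower in *Pich*-KO, and their summed normalized counts were 9570 to 10946 in *Pich*-KO and 65477 to 67217 in *Pich*-WT. *Vsig4* was at 0 in *Pich*-KO sample 2, and *Adgre1*, which encodes F4/80, had 273 and 205 normalized counts against 6617 and 6927. Among 12 LSK markers, 1 was higher, *Ly6a* (Sca-1), and 4 were lower, *Procr*, *Mecom*, *Hlf* and *Gfi1*.

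Most lysosomal genes were lower in the *Pich*-KO libraries of sorted LSK cells. Groups were compared by limma, fitted to log2(normalized count + 1) for 32428 genes whose mean was 1 or more, with Benjamini-Hochberg adjustment. A log2 fold change is *Pich*-KO minus *Pich*-WT on that scale, which understates the change of genes with few reads. At an adjusted p of 0.05, 25 of the 37 were lower and 2 were higher, while 10 did not pass. Over all genes tested 9.6% were lower and 7.58% higher, 17.2% together. These genes have more reads than most, and among genes whose mean was 100 or more, as in 35 of the 37, 22.4% were lower and 21.1% higher. The median log2 fold change of the 37 was -1.21, from -3.49 for *Ctsf* to 0.88 for *Tcirg1*, where the median over all genes tested was 0.02. In 7 of them, *Ctsf*, *Lgmn*, *Ctsb*, *Ctsh*, *Ctsl*, *Naglu* and *Ctsd*, the log2 fold change was below the 5th percentile of those better covered genes, which was -2.35.

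Both *Pich*-KO values were below both *Pich*-WT values in 32 of the 37 genes, so that the groups did not overlap, and they were above both in *Ctsz*, *Gla* and *Tcirg1*. Over all genes tested 27.2% were without overlap in the first direction and 28.9% in the second. *Laptm5* and *Atp6v0d2* overlapped. The 25 genes that fell kept 10.5% to 73.4% of their *Pich*-WT level. A fall of at least 1 on the log2 scale was found in 18 of them, against 6.91% of all genes tested. For a single gene, an exact permutation test (two-sided) over 2 and 2 samples has p = 0.333 as its smallest value, so these calls depend on the variance pooled by limma. Given the same prior variance for every gene rather than one set by the mean, limma called 0 of all 32428 genes tested. It thus called 0 of the 37, although 24 had an unadjusted p under 0.05. It also called 0 when any 1 of the 4 samples was left out, with 24 to 29 at an unadjusted p under 0.05.

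The macrophage markers had lower values than the lysosomal genes. Their median log2 fold change was -4.64, from -7.22 for *Marco* to 0.18 for *Fcgr1*, and the median marker kept 3.94% of its *Pich*-WT level where the median lysosomal gene kept 43.2%. *Cd68*, a lysosomal membrane protein of macrophages, had 723 and 760 normalized counts in *Pich*-KO, against 2906 and 2876 in *Pich*-WT. *Csf1r*, the receptor for macrophage colony-stimulating factor, had 7268 and 6111 against 16306 and 17259. In sorted bulk samples, fewer cells of a type and less RNA per cell cannot be told apart. The part of the macrophage markers in the fall of the lysosomal genes was not tested. The lineage antibodies named for the sort were against CD4, CD8, Gr-1, B220 and Ter119, and no antibody against a macrophage antigen is among them. The LSK gate also selects for c-Kit and Sca-1. How the sort bears on the macrophage markers was not tested.

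**Figure D1:**
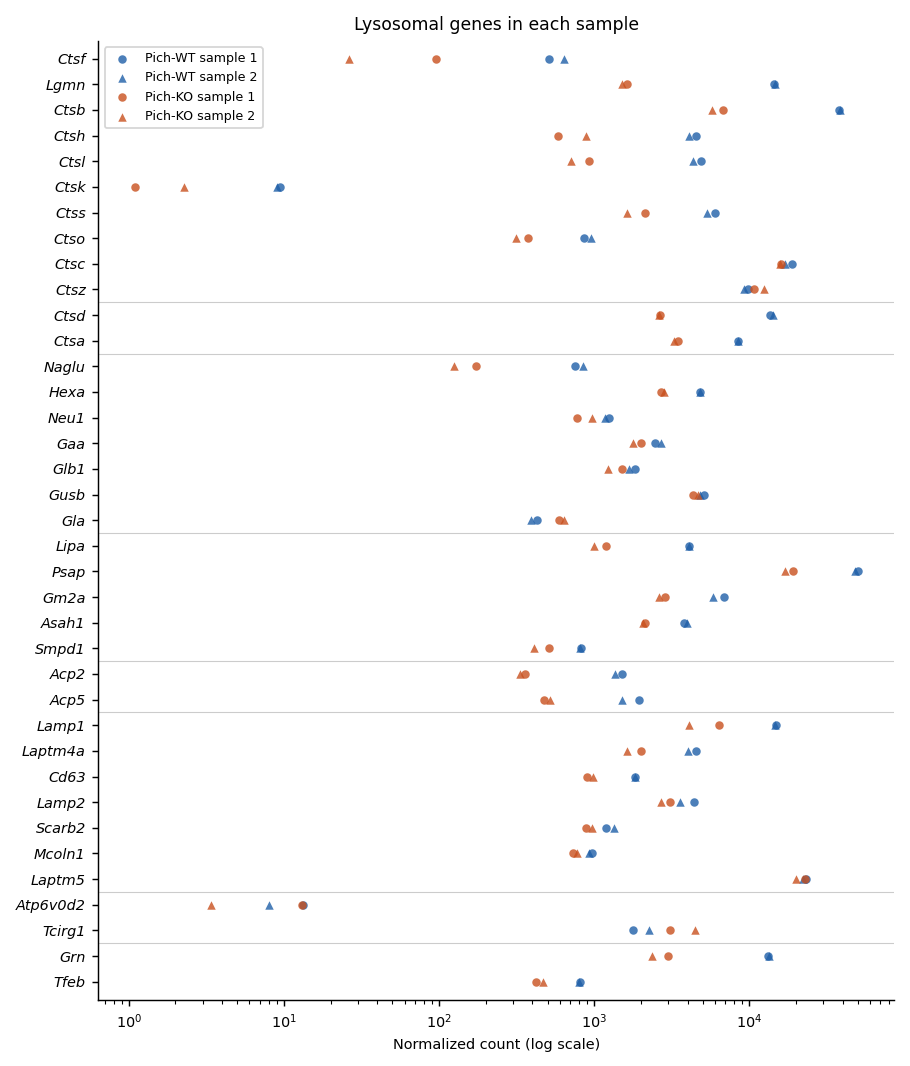
Normalized count of each of the 37 lysosomal genes (horizontal axis, log scale) in each sample, with circles for sample 1 and triangles for sample 2 of a group, grouped by role as in the text. In 32 genes both *Pich*-KO points lie to the left of both *Pich*-WT points, and in *Ctsz*, *Gla* and *Tcirg1* they lie to the right.

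The cysteine cathepsins and legumain, the papain-like and asparaginyl proteases of the lysosome, had the lowest median of all the roles. Of these 10 genes 7 were lower, 0 were higher and 3 did not pass, with a median log2 fold change of -2.23. *Lgmn* (ENSMUSG00000021190, chr12:102394084-102439813 on GRCm38), which encodes legumain, a protease that cuts after asparagine and also processes other cathepsins, had 1633 and 1505 normalized counts in *Pich*-KO, against 14396 and 14686 in *Pich*-WT. Both samples of a group lay close together, and the groups were 9.27-fold apart (log2 fold change -3.21, standard error 0.09, adjusted p = 4.55e-06, limma). *Ctsb* (ENSMUSG00000021939, chr14:63122462-63145923), the gene of cathepsin B, had 6725 and 5726 against 37994 and 38177 normalized counts (log2 fold change -2.62, standard error 0.09, adjusted p = 7.43e-06, limma). Its mean fell by 31860.2 normalized counts, more than that of any other of the 37 genes.

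*Ctsl*, which encodes cathepsin L, a broad endopeptidase, had 930 and 714 normalized counts in *Pich*-KO, against 4846 and 4347 in *Pich*-WT. *Ctsh*, the gene of the aminopeptidase cathepsin H, had 586 and 884 against 4518 and 4089. The higher *Pich*-KO sample was sample 1 for *Ctsl* and sample 2 for *Ctsh*, and both were far below the *Pich*-WT samples. Their log2 fold changes were -2.49 for *Ctsl* and -2.58 for *Ctsh* (adjusted p = 5.41e-05 and 0.000113, limma). *Ctss*, the cathepsin S gene, whose product trims the invariant chain of MHC class II in antigen-presenting cells, had 2114 and 1623 against 6004 and 5312 (log2 fold change -1.61, adjusted p = 0.000240, limma). *Ctso*, the gene of the less studied cathepsin O, had 373 and 315 against 853 and 958 (log2 fold change -1.40, adjusted p = 0.000852, limma). In both the groups were clearly apart.

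*Ctsf*, which encodes cathepsin F, had the largest log2 fold change and one of the widest spreads. The *Pich*-KO samples held 94.9 and 26.1 normalized counts, where the *Pich*-WT samples held 512 and 643. Sample 1 of *Pich*-KO was 3.63-fold above sample 2, yet both were far below *Pich*-WT (log2 fold change -3.49, standard error 0.51, adjusted p = 0.00254, limma). Leaving out *Pich*-KO sample 1 gave -4.40 and leaving out sample 2 gave -2.58, so the size of the fall depends on which sample is used. *Ctsk*, the gene of the bone-resorbing cathepsin K, was near the limit of detection, with 3 reads over both *Pich*-KO samples and 21 over both *Pich*-WT samples. Its depth-corrected ratio of *Pich*-KO to *Pich*-WT was 0.174, with an exact 95% interval of 0.0333 to 0.584 that covers counting error only, and it did not pass the test (adjusted p = 0.0889, limma).

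The other 2 cysteine cathepsins were kept at high levels. *Ctsc*, which encodes cathepsin C, the dipeptidyl peptidase that activates the serine proteases of granulocytes and mast cells, had 15958 and 15795 normalized counts in *Pich*-KO, against 18926 and 17095 in *Pich*-WT. Its log2 fold change was -0.18, with a 95% interval of -0.35 to -0.01 before adjustment, and it did not pass the test (adjusted p = 0.146, limma). *Ctsz*, the gene of the carboxypeptidase cathepsin Z, had 10698 and 12439 against 9766 and 9238. Both *Pich*-KO samples were above both *Pich*-WT samples, with a log2 fold change of 0.28 that limma did not call (adjusted p = 0.0756). edgeR, run on the reads recovered from the table, put *Ctsz* just past the threshold (adjusted p = 0.0497), and DESeq2 did not (adjusted p = 0.129).

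The serine proteases that cathepsin C activates are among 12 markers of monocytes and granulocytes, of which 4, *Ly6c2*, *Mpo*, *Prtn3* and *Ctsg*, were higher and 2, *Ccr2* and *Itgam*, were lower, with a median log2 fold change of 0.19. Of the proteases, *Ctsg*, the cathepsin G gene, and *Prtn3*, the proteinase 3 gene, had log2 fold changes of 2.65 and 2.73 (adjusted p = 0.00933 and 0.000756, limma), while *Elane*, the neutrophil elastase gene, did not pass (log2 fold change 0.90, adjusted p = 0.374, limma). The summed normalized counts of the 12 markers were 69475 and 127147 in *Pich*-KO, against 23844 and 24517 in *Pich*-WT. In both *Pich*-KO samples most of them fell on *Mpo*, the myeloperoxidase gene. The other 11 summed to 14828 and 36655 against 13493 and 11984, so that *Pich*-KO sample 1 was near *Pich*-WT and sample 2 above it. Which cells these transcripts came from, and their part in the level of *Ctsc*, was not tested.

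The aspartic and the serine cathepsin both fell. *Ctsd* (ENSMUSG00000007891, chr7:142375911-142388038), which encodes cathepsin D, the main aspartic protease of the lysosome, had 2651 and 2621 normalized counts in *Pich*-KO, against 13560 and 14187 in *Pich*-WT. The *Pich*-KO samples were nearly equal and 5.26-fold below *Pich*-WT (log2 fold change -2.39, standard error 0.08, adjusted p = 7.43e-06, limma). *Ctsa*, whose product is a carboxypeptidase that also protects beta-galactosidase and neuraminidase in a complex, had 3478 and 3273 against 8411 and 8480. That is a fall to 40.0% (log2 fold change -1.32, adjusted p = 6.92e-05, limma). Both genes carry TCACGTGA in the window shown above, as do *Gla*, which was higher, and *Mcoln1*, which did not pass.

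The glycosidases, which remove sugars from glycogen, glycolipids and glycosaminoglycans, were mixed. Of these 7 genes 3 were lower, 1 was higher and 3 did not pass, with a median log2 fold change of -0.45. *Naglu*, which encodes the alpha-N-acetylglucosaminidase of heparan sulfate breakdown, had 173 and 125 normalized counts in *Pich*-KO, against 753 and 847 in *Pich*-WT. It was the glycosidase that fell most (log2 fold change -2.43, standard error 0.21, adjusted p = 0.000223, limma). *Hexa*, the gene of the alpha subunit of beta-hexosaminidase, had 2684 and 2819 against 4790 and 4789, with no overlap and little spread (log2 fold change -0.80, adjusted p = 0.000756, limma).

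*Gaa*, the acid alpha-glucosidase gene, had 2006 and 1788 normalized counts in *Pich*-KO, against 2466 and 2700 in *Pich*-WT, a small fall (log2 fold change -0.45, adjusted p = 0.0302, limma). Without a filter on the mean its adjusted p was 0.0627 (limma), and it was not called by edgeR without either *Pich*-WT sample. *Neu1*, which encodes the lysosomal sialidase, had 775 and 971 against 1242 and 1182, with no overlap. limma did not call it (log2 fold change -0.48, adjusted p = 0.0626), while edgeR and DESeq2 did (adjusted p = 0.0453 and 0.0349).

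*Glb1*, the gene of beta-galactosidase, had 1507 and 1228 normalized counts in *Pich*-KO, against 1826 and 1672 in *Pich*-WT, and did not pass (log2 fold change -0.36, 95% interval -0.67 to -0.05 before adjustment, adjusted p = 0.122, limma). *Gusb*, which encodes beta-glucuronidase, had 4345 and 4637 against 5109 and 4807. Its samples were close in both groups (log2 fold change -0.14, 95% interval -0.35 to 0.06 before adjustment, adjusted p = 0.353, limma).

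*Gla* (ENSMUSG00000031266, chrX:134588149-134601125), the X-linked gene of the alpha-galactosidase that clears globotriaosylceramide, went the other way. It had 594 and 640 normalized counts in *Pich*-KO, against 430 and 394 in *Pich*-WT, with both *Pich*-KO samples above both *Pich*-WT samples (log2 fold change 0.58, standard error 0.15, adjusted p = 0.0347, limma). The call was lost without a filter on the mean (adjusted p = 0.0549, limma). It was also lost with edgeR when either *Pich*-WT sample was left out (adjusted p = 0.0705 without sample 1 and 0.114 without sample 2).

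All 5 genes for the breakdown of lipids were lower. *Psap* (ENSMUSG00000004207, chr10:60277627-60302597) encodes prosaposin, the precursor of the saposins that lift sphingolipids out of the membrane for their hydrolases. It had the most reads of the 37 genes in *Pich*-WT, with 19079 and 17007 normalized counts in *Pich*-KO, against 50317 and 47619 in *Pich*-WT. The groups were 2.71-fold apart (log2 fold change -1.44, standard error 0.07, adjusted p = 3.04e-05, limma). *Lipa*, the gene of the lysosomal acid lipase that frees cholesterol from its esters, fell most of the 5, from 4091 and 4081 in *Pich*-WT to 1194 and 1003 in *Pich*-KO (log2 fold change -1.90, standard error 0.12, adjusted p = 6.70e-05, limma).

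*Gm2a*, which encodes the activator that presents GM2 ganglioside to beta-hexosaminidase A, had 2850 and 2630 normalized counts in *Pich*-KO, against 6877 and 5798 in *Pich*-WT. *Asah1*, the acid ceramidase gene, had 2120 and 2054 against 3771 and 3956. *Smpd1*, the gene of the acid sphingomyelinase, had 512 and 409 against 819 and 806. None of these overlapped, and their log2 fold changes were -1.21, -0.89 and -0.83 (adjusted p = 0.000293, 0.000631 and 0.00976, limma). *Asah1* and *Smpd1* had the smallest falls of the lipid genes and differed from each other by less than their standard errors of 0.10 and 0.16.

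Both acid phosphatases fell. *Acp2*, which encodes the widely expressed lysosomal acid phosphatase, had 356 and 332 normalized counts in *Pich*-KO, against 1507 and 1353 in *Pich*-WT. *Acp5*, the gene of the tartrate-resistant phosphatase known from osteoclasts and macrophages, had 478 and 522 against 1931 and 1519. The falls were of similar size, with log2 fold changes of -2.05 and -1.78 (standard errors 0.14 and 0.16, adjusted p = 9.48e-05 and 0.000245, limma).

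**Figure D2:**
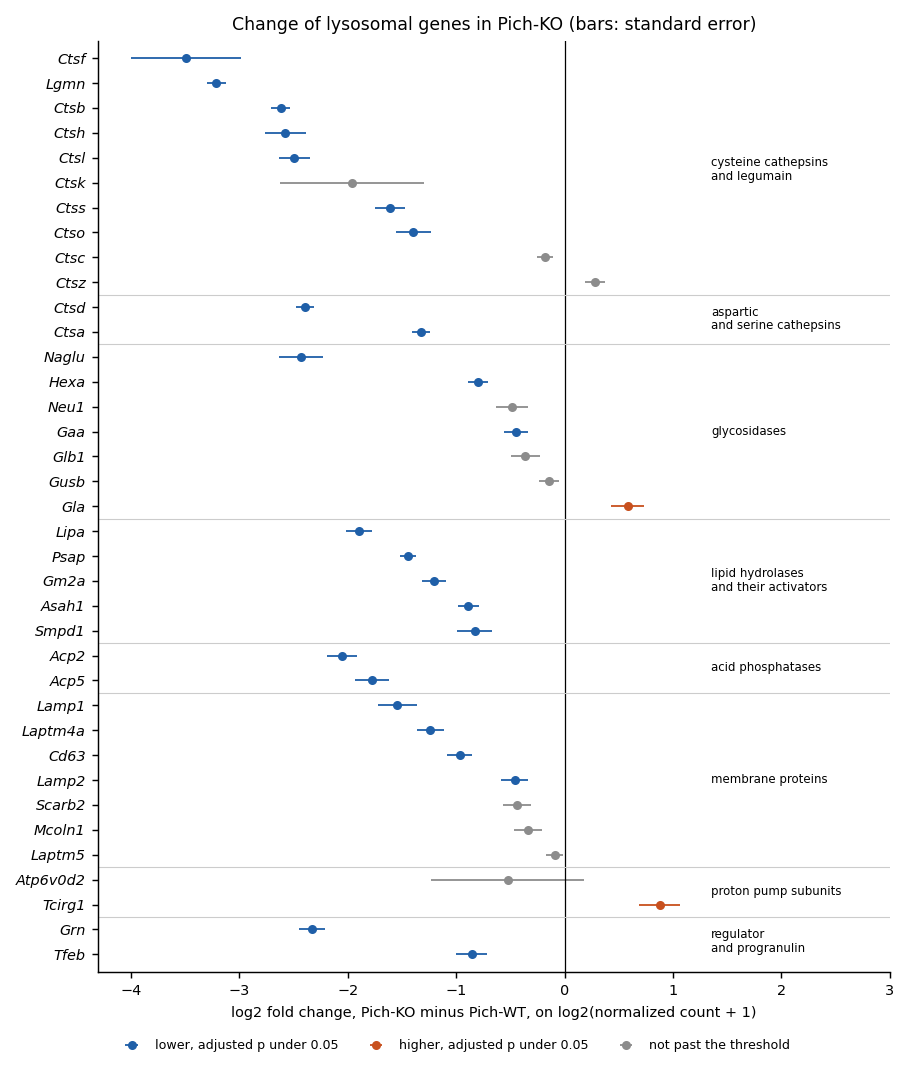
Log2 fold change of each lysosomal gene, *Pich*-KO minus *Pich*-WT, on log2(normalized count + 1), with the standard error as a bar and colour by limma's call at an adjusted p of 0.05. The cysteine proteases span from -3.49 for *Ctsf* to 0.28 for *Ctsz*, all lipid genes and acid phosphatases are lower, and *Gla* and *Tcirg1* are the 2 genes in the higher colour.

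Of the 7 membrane proteins 4 were lower, 0 were higher and 3 did not pass, with a median log2 fold change of -0.46. *Lamp1* (ENSMUSG00000031447, chr8:13159161-13175338), one of the most abundant glycoproteins of the lysosomal membrane, had 6329 and 4065 normalized counts in *Pich*-KO, against 14866 and 14664 in *Pich*-WT. The *Pich*-KO samples differed by 1.56-fold and both were below *Pich*-WT (log2 fold change -1.54, standard error 0.18, adjusted p = 0.000827, limma). Its paralog *Lamp2*, an X-linked gene whose product also serves chaperone-mediated autophagy, had 3071 and 2697 against 4376 and 3581, a smaller fall (log2 fold change -0.46, adjusted p = 0.0402, limma). That call was lost when no genes were filtered out, at a pseudocount of 0.1, and with edgeR when *Pich*-WT sample 1 was left out (adjusted p = 0.231).

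*Laptm4a*, which encodes a small membrane protein of late endosomes and lysosomes, had 2013 and 1632 normalized counts in *Pich*-KO, against 4535 and 4029 in *Pich*-WT (log2 fold change -1.24, adjusted p = 0.000527, limma). *Cd63*, the gene of a tetraspanin of late endosomes and secreted vesicles, had 897 and 979 against 1825 and 1840 (log2 fold change -0.97, adjusted p = 0.00110, limma). *Scarb2*, whose product LIMP-2 carries beta-glucocerebrosidase to the lysosome, had 887 and 966 against 1186 and 1333. Its groups did not overlap, but limma did not call it (log2 fold change -0.44, adjusted p = 0.0557), while edgeR and DESeq2 did (adjusted p = 0.0379 and 0.0380).

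*Mcoln1*, the gene of the calcium channel TRPML1, had 731 and 780 normalized counts in *Pich*-KO, against 975 and 932 in *Pich*-WT, and did not pass (log2 fold change -0.34, 95% interval -0.64 to -0.03 before adjustment, adjusted p = 0.133, limma). *Laptm5*, which encodes a lysosomal membrane protein of blood cells, had 22730 and 19903 against 23020 and 22250. Sample 1 of *Pich*-KO lay between the *Pich*-WT samples, and the log2 fold change was -0.09, with a 95% interval of -0.27 to 0.09 before adjustment (adjusted p = 0.518, limma). *Laptm5* and *Laptm4a*, members of the same family, thus had different values, and the difference between the 2 genes was not tested.

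The proton pump is represented by *Tcirg1* and *Atp6v0d2*, which encode the a3 and d2 subunits of its membrane sector, the forms known from osteoclasts. *Tcirg1* (ENSMUSG00000001750, chr19:3896050-3907133) had 3057 and 4462 normalized counts in *Pich*-KO, against 1789 and 2259 in *Pich*-WT. It had the largest rise of the 37 genes, with every *Pich*-KO value above every *Pich*-WT value (log2 fold change 0.88, standard error 0.19, adjusted p = 0.0147, limma). edgeR called it higher in all 4 fits that left out 1 sample, with log2 fold changes of 0.63 to 1.17, but limma did not without a filter on the mean. *Atp6v0d2* was close to the limit of detection, with 13.1 and 3.41 normalized counts against 13.3 and 8, and the groups overlapped (adjusted p = 0.701, limma).

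Among the other 16 subunits of the pump 6 were lower and 0 higher, with a median log2 fold change of -0.29. *Atp6v0a1*, the gene of the a1 subunit and so a paralog of *Tcirg1*, had 400 and 485 normalized counts in *Pich*-KO, against 1784 and 1561 in *Pich*-WT (log2 fold change -1.92, adjusted p = 0.000168, limma). The 2 paralogs thus moved in opposite directions, each past the threshold. The subunit with the highest log2 fold change, *Atp6v1h*, was at 0.08 (adjusted p = 0.710, limma).

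*Tfeb*, the gene of a transcription factor that recognises E-boxes with the core CACGTG, had 424 and 467 normalized counts in *Pich*-KO, against 813 and 801 in *Pich*-WT. It was lower by 0.86 on the log2 scale, with a standard error of 0.14 (adjusted p = 0.00499, limma). Its paralog *Tfe3* had 772 and 758 against 1332 and 1275 (log2 fold change -0.77, adjusted p = 0.00397, limma). *Mitf*, a further paralog, had 38.2 and 45.5 against 85.2 and 81.0, without overlap, and did not pass (log2 fold change -0.98, adjusted p = 0.0594, limma). *Grn* (ENSMUSG00000034708, chr11:102430315-102437048), which encodes progranulin, a secreted glycoprotein that is cut into granulins in the lysosome, fell further than *Tfeb*. It had 2992 and 2360 normalized counts in *Pich*-KO, against 13266 and 13482 in *Pich*-WT (log2 fold change -2.33, standard error 0.12, adjusted p = 3.04e-05, limma).

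Scaled to 1000000 reads on genes, the 37 genes together took 7666 and 7144 reads in the *Pich*-KO libraries, against 16650 and 16953 in *Pich*-WT. The groups did not overlap and differed 2.27-fold, and the exact two-sided permutation test gave p = 0.333, the smallest value that 2 samples against 2 allow. Without *Psap*, *Ctsb* and *Laptm5*, which had the most reads, the ratio was 2.13. The macrophage markers took 660 and 573 against 4002 and 4318 reads on that scale, a ratio of 6.75. The 12 LSK markers took 1939 and 1217 against 1736 and 1932, which overlapped. Taken singly, 1 of them was higher and 4 were lower, with a median log2 fold change of -0.55. The sum therefore does not stand for each marker.

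The make-up of this pool differed between the groups. *Ctsb* took 14.2% of the reads on the 37 genes in *Pich*-WT and 5.04% in *Pich*-KO, as means of 2 samples, and *Lgmn* took 5.42% and 1.27%. *Laptm5* went the other way, from 8.44% to 17.3%, as did *Ctsc* from 6.71% to 12.9% and *Ctsz* from 3.54% to 9.42%. In each of these genes both *Pich*-KO shares lay outside the range of the *Pich*-WT shares. Since the pool itself was smaller in *Pich*-KO, a gene that kept its level takes a larger share of it, and neither *Laptm5* nor *Ctsc* had a higher normalized count there. *Psap* kept a large share in both, 18.3% and 14.6%.

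Levels of different genes were compared per length, as reads per kilobase of gene length and 1000000 reads (RPKM). In *Pich*-WT *Psap* led with 1121 and 1115, followed by *Ctsz* with 414 and 412. *Ctsb* with 384 and 405 and *Lgmn* with 379 and 406 came next and overlapped each other, and *Laptm5* followed with 371 and 377. In *Pich*-KO *Ctsz* led with 448 and 516, ahead of *Psap* with 420 and 371 and *Laptm5* with 362 and 314.

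The order below the leaders changed too. *Ctsc* stood at rank 10 of the 37 in *Pich*-WT and at rank 4 in *Pich*-KO, with 166 and 163 RPKM there. *Lamp1* was at rank 7 and then at rank 5, with 143 and 90.9 RPKM in *Pich*-KO. *Ctsb* went from rank 3 to rank 9 and *Lgmn* from rank 4 to rank 15, while *Tcirg1* went from rank 24 to rank 12. *Hexa*, with 81.1 and 84.5 RPKM, and *Ctss*, with 93.9 and 71.5, overlapped each other at ranks 6 and 7 in *Pich*-KO. *Ctsk* and *Atp6v0d2* were the lowest in both groups, under 1 RPKM.

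**Figure D3:**
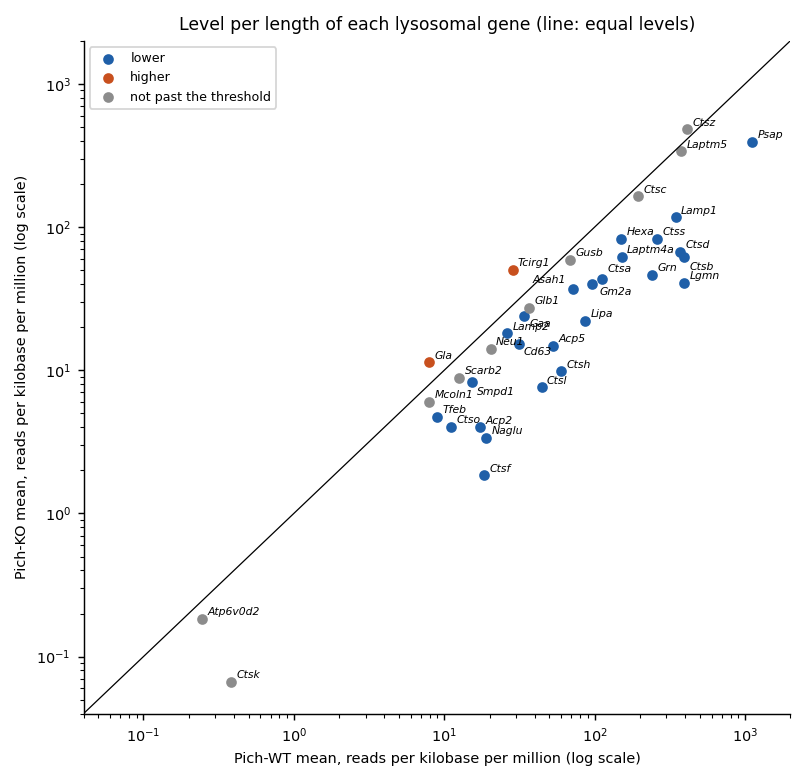
Mean level of each lysosomal gene in *Pich*-WT (horizontal axis) and *Pich*-KO (vertical axis), in RPKM on log scales, with a line of equal levels and colour by limma's call. *Ctsz*, *Laptm5* and *Ctsc* lie near the line at high levels, while *Lgmn*, *Ctsb* and *Ctsd*, at similar levels in *Pich*-WT, lie well below it.

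The *Pich*-KO samples were further apart than the *Pich*-WT samples for these genes. Between the *Pich*-KO samples 23 of the 37 genes were within 1.2-fold, and between the *Pich*-WT samples 32 were. The share over all genes is not given here, so this is not read as particular to these genes. Sample 1 of *Pich*-KO had the higher value in 24 genes, among them *Ctsf*, *Lamp1*, *Naglu*, *Ctss* and *Grn*, and sample 2 in 13, among them *Ctsh*, *Tcirg1*, *Ctsz* and *Neu1*. With edgeR on recovered reads, 27 of the 36 it tested were lower and 3 higher, where 20.7% and 18.6% of its 16608 genes were. *Ctsk* was not tested by edgeR. DESeq2 called 27 of the 35 it tested lower and 2 higher, against 20.3% and 16.7% of all genes it tested. It gave no adjusted p for *Ctsk* and *Atp6v0d2*. For the edgeR fits that follow, each without 1 sample, the counts over all genes are in the last section. Leaving out 1 sample at a time, edgeR called 23 to 27 lower and 1 to 3 higher. Without *Pich*-WT sample 2, the one with no Y-linked reads, 24 were lower and 1, *Tcirg1*, was higher. Of the 25 genes that limma called lower, 23 were lower in all 4 of these edgeR fits, the exceptions being *Gaa* and *Lamp2*.

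Other genes of the lysosome were read from a list of 90, of which 39 were lower, 4 were higher and 47 did not pass, with a median log2 fold change of -0.41. Of 1000000 reads they took 6396 and 6252 in *Pich*-KO, against 9540 and 9461 in *Pich*-WT, a ratio of 1.50. The 26 other hydrolases and activators were nearest to the 37 genes, with 18 lower, 0 higher and a median of -0.91. *Manba*, the beta-mannosidase gene, had the highest value of that group and did not pass (log2 fold change 0.75, adjusted p = 0.0509, limma).

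Of the 18 other membrane proteins and transporters 7 were lower and 0 higher, with a median of -0.41. *Slc11a1*, the phagosomal metal transporter NRAMP1 of macrophages, fell from 2362 and 2643 normalized counts in *Pich*-WT to 170 and 83.0 in *Pich*-KO (log2 fold change -4.38, adjusted p = 9.05e-05, limma). *Slc36a1*, an amino acid transporter gene, had the highest value of that group, a log2 fold change of 0.56 that did not pass (adjusted p = 0.286, limma). The fall of *Slc11a1* was of the size of the macrophage markers, whose part in it was not tested.

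The 12 genes that deliver enzymes to lysosomes held 2 lower and 1 higher, with a median of -0.12. *Gnptab*, which encodes the phosphotransferase that starts the mannose 6-phosphate tag, had 1360.1 and 1228 normalized counts in *Pich*-KO, against 470 and 484 in *Pich*-WT (log2 fold change 1.44, adjusted p = 0.000347, limma). *Sort1*, the gene of the sorting receptor sortilin, had 99.3 and 143 against 444 and 270 (log2 fold change -1.53, adjusted p = 0.00931, limma). In both genes the groups did not overlap, in opposite directions.

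Among 14 regulators of lysosomal genes and of mTORC1 at the lysosome 3 were lower and 2 higher, with a median of -0.00. *Fnip1*, the folliculin partner gene, had 208 and 240 normalized counts in *Pich*-KO, against 100.03 and 93 in *Pich*-WT (log2 fold change 1.20, adjusted p = 0.00730, limma). *Rragd*, a Rag GTPase gene, had the lowest value of that group and did not pass (log2 fold change -1.39, adjusted p = 0.0659, limma).

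The 4 inhibitors of cathepsins were split, with 3 lower and 1 higher. *Cst7*, the gene of cystatin F, an inhibitor of cathepsin C and other cysteine cathepsins in immune cells, had 566 and 778 normalized counts in *Pich*-KO, against 167 and 155 in *Pich*-WT (log2 fold change 2.04, adjusted p = 0.000447, limma). *Serpinb6a*, which encodes an intracellular serpin that inhibits cathepsin G, had 217 and 202 against 996 and 1078 (log2 fold change -2.30, adjusted p = 8.68e-05, limma).

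**Figure D4:**
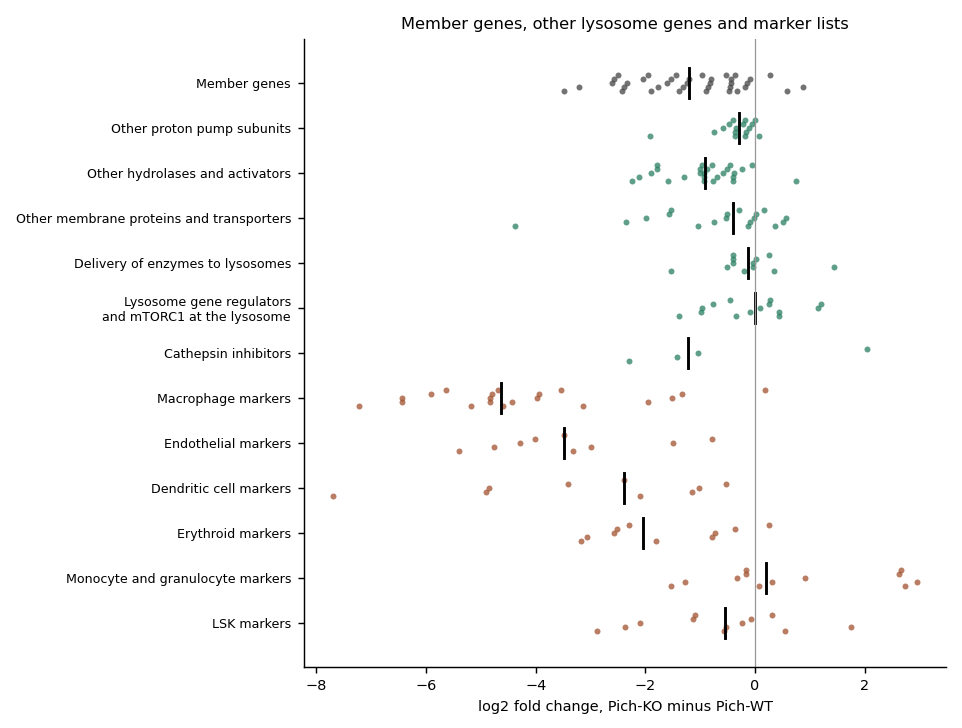
Log2 fold change, *Pich*-KO minus *Pich*-WT, of each of the 37 lysosomal genes (top row), of the other lysosome genes by role and of marker genes of 6 cell types, 1 point per gene with the median of each row as a black bar. The medians are -1.21 for the 37 genes, -0.91 for the other hydrolases, -0.29 for the other pump subunits and -4.64 for the macrophage markers.

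Other cell type markers also differed, although a marker need not belong to a single cell type. *Flt3*, for example, was on both the dendritic cell and the LSK list. All 9 endothelial markers were lower, with a median log2 fold change of -3.48, as were 6 of 9 dendritic cell markers, with a median of -2.40, and 8 of 10 erythroid markers, with a median of -2.05. Of 10 hepatoblast markers 6 were lower and 0 higher (median -0.82), and of 6 megakaryocyte markers 3 were lower and 0 higher (median -1.19). The 6 mast cell and basophil markers had a positive median of 1.05, with 2 higher, *Cpa3* and *Ms4a2*, and 1 lower, *Gata2*. *Kit*, which with *Ly6a* defines the LSK gate, had 4447 and 2772 normalized counts in *Pich*-KO, against 2328 and 2513 in *Pich*-WT, without overlap, and did not pass by limma (adjusted p = 0.114) or edgeR (adjusted p = 0.0610) but was called higher by DESeq2 (adjusted p = 0.0178). *Ly6a* had 3586 and 2978 against 901 and 1061. Their part in the values of the lysosomal genes was not tested.

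Several lysosomal genes share their place with another gene. Of the 37, 11 overlap another gene of the table, 2 of them on the same strand, *Ctss* with the pseudogene *Hmgb1-ps5* and *Glb1* with *Tmppe*. *Hmgb1-ps5* had a mean of 18.5 normalized counts against 3763 for *Ctss*, and *Tmppe* had 395 against 1558 for *Glb1*, so the value of *Glb1* is the less certain of these. On the opposite strand *Ctsz* overlaps *Nelfcd*, which had a mean of 1998 against 10535, and *Acp2* overlaps *Ddb2*, which had 209 against 887. How the authors' counting used strand is not given in the sources used here.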

How the data were processed

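The authors sorted fetal liver LSK cells, extracted RNA with Trizol and prepared TruSeq libraries, per the labels. The submitters' processing notes name Bowtie 0.12.2 and the builds mm8 and mm9, but 36 of the 37 genes, and 97.8% of 39131 matched genes, had the same coordinates as GENCODE M21 (GRCm38), which is therefore the build given. The deposited values are a signal: reads on genes divided by 1 size factor per sample. Dividing by the step gave whole reads for 100% of values (tolerance 0.001). The authors' own fold changes and p-values, and their group means, were not used.

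limma 3.58.1 (R 4.3.3) with a mean-dependent prior variance was run on log2(value + 1) for genes whose mean was 1 or more, with Benjamini-Hochberg adjustment, an adjusted p of 0.05 and all 4 samples. edgeR 4.0.16 and DESeq2 1.42.0 on recovered reads were alternatives, and edgeR fits without each sample were added after seeing the data. The procedure was tested on simulated data. The 37 genes and the lists of other lysosome and marker genes were chosen with earlier results of these data known. By the rule set for naming, any of the 37 may be named, and of the other lists the genes with the highest and lowest log2 fold change in each lysosomal role, the paralogs of *Tfeb*, and set markers. The values of 1 gene that this rule names are not reported here. The other named markers of LSK cells, monocytes, granulocytes, mast cells and basophils, *Vsig4* and the overlapping genes were named after their values were seen. RPKM values used the deposited gene lengths. Promoter sequences are from RefSeq (GRCm38.p6). Intervals on reads cover counting error only.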

Additional observations from a re-analysis of the deposited data

How the results depend on the processing

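Every count of calls rests on the variance model. With limma without a variance trend, and with limma without any 1 sample (lone sample assumed to vary like the other group), 0 genes were called higher and 0 lower, the 37 genes and the 90 others included, although 24 to 29 of the 37 had an unadjusted p under 0.05. In those fits without 1 sample the median of the 37 was -1.36 to -1.08. edgeR without 1 sample, added after seeing the data, called 1717 to 3685 genes higher and 2270 to 3917 lower, 1 to 3 and 23 to 27 of the 37, and 9, 7, 4 and 5 higher and 31 to 47 lower of the 90, with medians of the 37 of -1.29, -1.02, -1.02 and -1.10 (without *Pich*-KO 1, *Pich*-KO 2, *Pich*-WT 1 and *Pich*-WT 2). These edgeR fits without 1 sample tested 17839 to 18303 genes, 36 of the 37 among them. With all samples the median of the 37 was -1.07 by edgeR with TMM and -1.06 with upper-quartile scaling. Of the 37, 0 were higher and 23 lower without a filter on the mean, where 33 had an unadjusted p under 0.05 (limma) and edgeR called 3 higher, and 0 were higher and 18 lower at a log2 fold change of at least 1. The ratio of read shares was 2.13 without the 3 genes with the most reads and 2.19 to 2.35 without 1 sample. Under a pseudocount of 0.1, at least 10 counts in every sample, both edgeR scalings, DESeq2, the replicate block and values rescaled by TMM, 24 to 27 of the 37 were lower and 2 or 3 higher. None of the 37 was called in opposite directions by any of these fits. No source ties samples of equal number together, and deviations of such samples from their group means had a correlation of 0.0133 over 10544 genes, across genes and not replicates. With a block for the replicate number, limma called 3122 genes higher and 3874 lower, 3 and 27 of the 37, and 6 and 45 of the 90.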
